A study of Ctenopharyngodon idella with 15 samples.

Results

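Antibodies are built from heavy and light chains, and 4 loci that encode such chains were followed here in the gills of grass carp (Ctenopharyngodon idella). They are the loci that the study names IgM heavy chain, membrane-bound IgZ, Ig lambda-1 light chain and Ig light chain L2, and they are 4 of the 40116 genes listed for each fish. They were taken by the names the study gives them, and the rule itself set no threshold on expression. The study lists immunoglobulin chain genes among those that differed with salinity in separate, infected fish. Whether the names of these 4 loci come from that list is not known here. All 4 passed the filter on low expression, a mean of at least 0.5 FPKM (fragments per kilobase of transcript, scaled to the mapped fragments of the library) over all fish, as did 24647 genes in all.

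Gill RNA was sequenced from 15 grass carp, with 3 fish in each of 5 groups and 1 library per fish. The fish are labelled as 3 months old, and no genotype or strain is given for any group. Untreated control fish (con) were kept at a salinity of 0, and the other groups lived for 30 days in water with sea salt at 3‰ or 6‰, which the sample labels write as 3% and 6%. At each salinity, fish without symptoms and fish with body injury were sampled separately, which gave 3‰-treated asymptomatic fish (3A), 3‰-treated symptomatic fish (3S), 6‰-treated asymptomatic fish (6A) and 6‰-treated symptomatic fish (6S). None of these fish had been infected. Salinity was assigned, whereas symptoms were observed.

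An antibody is made by B cells and plasma cells as paired heavy and light chains, and the heavy chain sets its class. IgM is the main antibody of fish blood, whereas IgZ, also called IgT, is a class of bony fish that is known for its part in mucosal surfaces such as the gill. A membrane-bound heavy chain carries a tail that anchors it on the B cell as part of the antigen receptor, while the secreted form leaves the cell. Bony fish have several kinds of light chain, often encoded by many short gene clusters.

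The loci lie on 3 scaffolds, by the coordinates that their identifiers carry. No source used here gives the genome build of these coordinates. IgM heavy chain (CI01119064_00000599_00000907.path1) spans 309 bases, from 599 to 907, and is the sole locus listed on its scaffold. Membrane-bound IgZ (CI01000069_04942590_04973602.path1) spans 31013 bases, from 4942590 to 4973602, on a scaffold with 250 listed loci. Ig lambda-1 light chain (CI01000334_00016497_00019305.path1) spans 2809 bases, from 16497 to 19305, and Ig light chain L2 (CI01000334_00002698_00003642.path1) spans 945 bases, from 2698 to 3642. The light chain loci are neighbours, with 12854 bases and no other listed locus between them. No listed locus overlaps any of the 4.

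FPKM sums ranged from 759044 to 852270, and 28848 to 30345 genes were above 0. Since FPKM is already scaled to each library, such sums do not show how deeply the libraries were sequenced. Over the other 24643 tested genes, 3 libraries stood farthest from the rest, con replicate 1, 3S replicate 3 and 6S replicate 3, with a median distance of 0.376, 0.374 and 0.475 on the log2 scale to the other libraries, against at most 0.305 for the remaining 12. The closest of the 105 pairs of libraries came from different groups, 3S replicate 1 and 6S replicate 1, at 0.144, and the next pair was at 0.185. Many, but not all, of the comparisons, correlations and ratios that rest on these 3 libraries are also given without them.

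The heavy chains were abundant and the light chains less so. Mean expression over the 15 fish was higher for IgM heavy chain than for 98.6% of tested genes, for membrane-bound IgZ than for 98.1%, for Ig light chain L2 than for 84.8% and for Ig lambda-1 light chain than for 41.6%. These levels are FPKM and so are per transcript length, with a length that no source used here gives.

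All 4 loci differed more between fish of the same group than most genes did. The SD within groups, on the log2(FPKM + 1) scale, was 1.34 for IgM heavy chain, 1.03 for membrane-bound IgZ, 0.764 for Ig lambda-1 light chain and 0.571 for Ig light chain L2, against 0.299 for the median tested gene. That of IgM heavy chain was larger than in 98.7% of tested genes and that of Ig light chain L2 than in 87.4%. Group membership accounted for 13.8% of the variance of IgM heavy chain, 24.9% of that of membrane-bound IgZ, 48.6% of that of Ig lambda-1 light chain and 41.0% of that of Ig light chain L2, against 36.5% for the median gene. With few fish in each group, such shares are well above 0 for a gene that does not respond.

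IgM heavy chain spanned a 15.1-fold range over the fish. In con it was 69.4, 258 and 331 FPKM in replicates 1, 2 and 3. In 3A it was 398, 131 and 144 FPKM, and in 3S it was 564, 127 and 54.1 FPKM. In 6A it was 78.7, 231 and 156 FPKM, and in 6S it was 600, 815 and 80.5 FPKM. The fish with the lowest level was symptomatic, as were the 3 with the highest levels, and every group overlapped every other.

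The group means of IgM heavy chain were 219 ± 135 FPKM in con, 224 ± 150 in 3A, 249 ± 276 in 3S, 155 ± 76.2 in 6A and 499 ± 378 in 6S (SD, n = 3 each). In 3S the SD was larger than the mean. In bulk gill tissue, a difference in the number of B cells or plasma cells and a difference in the RNA of each cell cannot be told apart.

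Membrane-bound IgZ followed the same order of fish in most groups. It was 80.3, 245 and 238 FPKM in con, 268, 95.4 and 129 FPKM in 3A, and 358, 89.2 and 81.2 FPKM in 3S. It was 49.9, 173 and 124 FPKM in 6A, and 413, 560 and 103 FPKM in 6S. Here too 6S held the fish with the highest levels and every group overlapped every other, over an 11.2-fold range. The means were 188 ± 93.1 FPKM in con, 164 ± 91.6 in 3A, 176 ± 157 in 3S, 115 ± 61.8 in 6A and 359 ± 234 in 6S (SD, n = 3 each).

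Ig lambda-1 light chain was low in con and higher in each fish of both symptomatic groups. It was 2.03, 3.20 and 3.70 FPKM in con, and 4.22 FPKM or more in every symptomatic fish, with 12.2, 4.22 and 5.83 FPKM in 3S and 10.8, 11.7 and 8.20 FPKM in 6S. The asymptomatic fish lay on both sides of these, with 10.6, 3.26 and 1.20 FPKM in 3A and 1.14, 6.42 and 2.43 FPKM in 6A. Thus 6S overlapped neither con nor 6A, 3S did not overlap con, and 3A and 3S overlapped through 3A replicate 1. The means were 2.98 ± 0.857 FPKM in con, 5.01 ± 4.92 in 3A, 7.43 ± 4.24 in 3S, 3.33 ± 2.76 in 6A and 10.2 ± 1.82 in 6S (SD, n = 3 each).

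Ig light chain L2 was even in con, and its highest levels were in 6S. It was 29.3, 30.6 and 28.2 FPKM in con, 28.3, 19.4 and 26.3 FPKM in 3A, and 42.6, 12.1 and 33.5 FPKM in 3S. It was 20.6, 32.9 and 24.5 FPKM in 6A, and 53.1, 87.0 and 29.4 FPKM in 6S. The 2 highest fish were 6S replicates 2 and 1, while 6S replicate 3 lay among the con fish, so that 6S overlapped con, 3S and 6A. The means were 29.4 ± 1.21 FPKM in con, 24.7 ± 4.69 in 3A, 29.4 ± 15.7 in 3S, 26.0 ± 6.29 in 6A and 56.5 ± 28.9 in 6S (SD, n = 3 each).

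**Figure D1:**
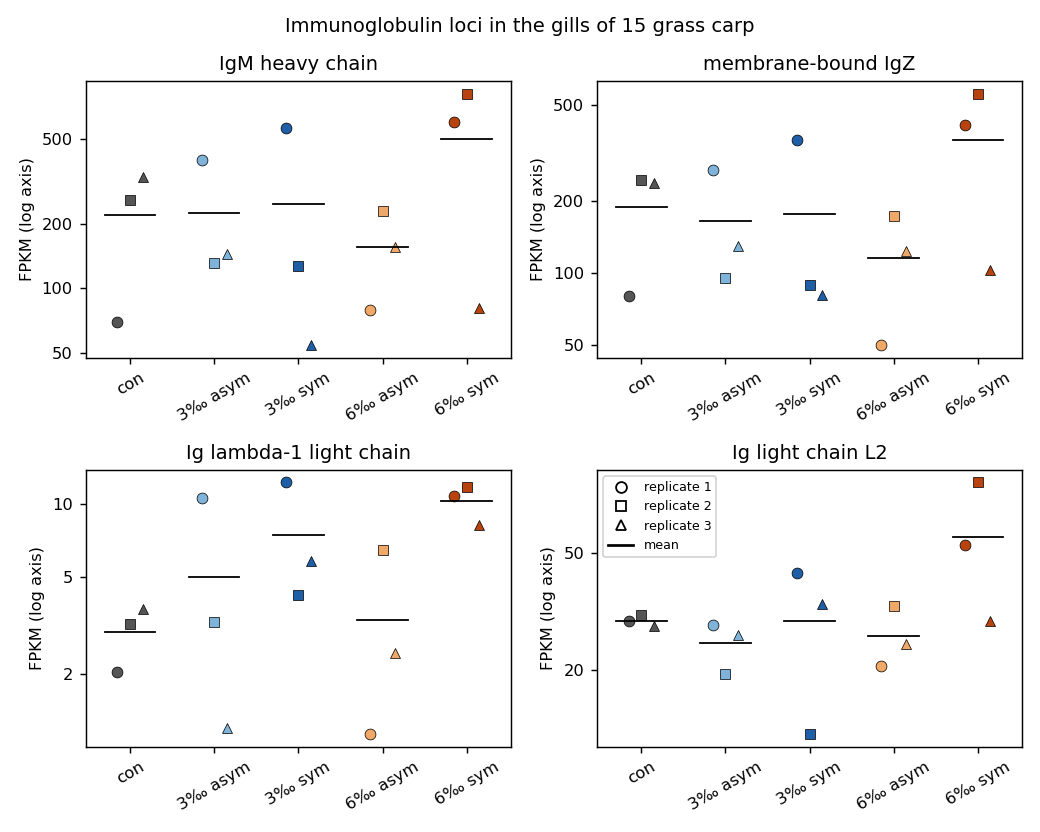
FPKM of the 4 loci in each of the 15 fish (log axis, 1 panel per locus), with groups along the horizontal axis, a symbol for each replicate number and a bar at the group mean. Ig lambda-1 light chain lay at 4.22 FPKM or above in all symptomatic fish and at 3.70 FPKM or below in all con fish, whereas the groups overlap throughout for IgM heavy chain and membrane-bound IgZ.

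Group differences were tested with limma on log2(FPKM + 1) over all tested genes, and a locus was called at a fold change of at least 1.5 with an unadjusted p below 0.05, the thresholds of the study. The study does not name the test behind its p, so calls made here need not be its calls. It states that, in uninfected fish, salinity left IgM, IgZ and the light and heavy chains unchanged. Comparisons that share con, 6A or 6S share those fish and are not independent. No locus passed a Benjamini-Hochberg adjusted p of 0.05 in limma in any of 12 comparisons, where 0% to 1.18% of tested genes did. On the unadjusted p, 5 calls were made over 4 loci in 12 comparisons, and all of them were in the light chains. Of all tested genes, 2.43% to 10.4% were called in each comparison. In 6A vs 6S, the uncalled heavy chains differed by 1.48 (membrane-bound IgZ, SE 0.757) and 1.26 (IgM heavy chain, SE 0.978). The called light chains differed by 0.99 (Ig light chain L2, SE 0.426) and 1.55 (Ig lambda-1 light chain, SE 0.563). Whether heavy and light chains differ in their response was not tested.

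Ig lambda-1 light chain was 1.51 log2 units higher in 6S than in con (SE 0.563, limma unadjusted p = 0.0195, adjusted p = 0.39), with 3 of 3 fish above every con fish. The exact permutation test over the fish gave p = 0.1, the smallest that 3 against 3 allow. It was the 1 locus of 4 called in con vs 6S, where 5.97% of tested genes were called, and the higher group did not overlap con for 7.16% of genes. The other loci gave 0.91 for IgM heavy chain, 0.78 for membrane-bound IgZ and 0.79 for Ig light chain L2, with 95% intervals that included 0.

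The call of Ig lambda-1 light chain in con vs 6S was lost without con replicate 1 (1.32), without 6S replicate 2 (1.41) and without the 3 libraries that stood apart (1.46). The adjusted p of limma lay between 0.21 and 0.639 over all alternatives. In the same comparison Ig light chain L2 was called without 3S replicate 2, which enters through the shared spread (0.79), without 6S replicate 3 (1.18) and without the 3 libraries that stood apart (1.18).

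Between 6A and 6S, Ig lambda-1 light chain was 1.55 log2 units higher in 6S (SE 0.563, limma unadjusted p = 0.0167, adjusted p = 0.393, exact permutation p = 0.1), again without overlap. In the same fish Ig light chain L2 was 0.99 higher (SE 0.426, limma unadjusted p = 0.0381, adjusted p = 0.435, exact permutation p = 0.2). Thus 2 of the 4 loci were called, against 5.51% of tested genes, and the higher group did not overlap for 7.5% of genes. The light chains correlated with each other over the 15 fish (r = 0.609), so these 2 calls are not independent. Membrane-bound IgZ gave 1.48 (SE 0.757) and IgM heavy chain 1.26 (SE 0.978), and neither was called.

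The comparison of 6A and 6S turned on single fish. Without 6A replicate 1, which had the lowest level of Ig lambda-1 light chain of all 15 fish, neither light chain was called (1.14 and 0.84). The call of Ig light chain L2 was also lost without 6A replicate 3 (0.96), without 6S replicate 1 (0.96) and without 6S replicate 2 (0.61). Without 6S replicate 3, and likewise without the 3 libraries that stood apart, all 4 loci were called, with 2.30 for IgM heavy chain and 2.22 for membrane-bound IgZ. The share of all tested genes called in these fits was not taken, so these 4 calls have no background to be set against. Membrane-bound IgZ was called as well without 6A replicate 2 (1.86) and without 3S replicate 1 (1.48). The adjusted p of limma lay between 0.271 and 0.798 for Ig lambda-1 light chain over all alternatives and between 0.306 and 0.798 for Ig light chain L2.

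Between the symptomatic groups, Ig light chain L2 was 0.96 log2 units higher in 6S than in 3S (SE 0.426, limma unadjusted p = 0.0424, adjusted p = 0.933, exact permutation p = 0.3), and it was the 1 locus of 4 called, against 2.43% of tested genes. It was lost without 3S replicate 2, the fish with its lowest level (0.44), without 6S replicate 2 (0.59), without 6S replicate 1 (0.94), and, at the same 0.96, without any con fish, 3A replicate 3 or 6A replicate 3, or when these groups were fitted alone. Its adjusted p in limma was at least 0.425 under every alternative. The heavy chains were called here without 6S replicate 3, at 2.14 for IgM heavy chain and 1.80 for membrane-bound IgZ, and membrane-bound IgZ also without 3S replicate 1 (1.75).

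Averaged over both salinities, Ig lambda-1 light chain was 1.13 log2 units higher in symptomatic than in asymptomatic fish (SE 0.398, limma unadjusted p = 0.0143, adjusted p = 0.166). The exact test, permuting fish within each salinity, gave p = 0.05. It was the 1 locus of 4 called in this comparison, where 4.48% of tested genes were called. The difference was 0.71 at 3‰ and 1.55 at 6‰, and 0 of 4 loci had a called interaction of salinity and symptoms, against 3% of tested genes. The call was kept when any single fish was left out, at 0.85 to 1.45 log2 units, with an adjusted p in limma between 0.0802 and 0.327 over all alternatives.

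Other loci joined it in the symptomatic and asymptomatic comparison once certain libraries were left out. Ig light chain L2 was called without 3S replicate 2 (0.80) and without 6S replicate 3 (0.73), and the heavy chains were called without the 3 libraries that stood apart, at 1.37 for IgM heavy chain and 1.24 for membrane-bound IgZ. The interaction was called for membrane-bound IgZ without 3S replicate 1 (2.29) or 6S replicate 3 (2.34), and for Ig light chain L2 without 6S replicate 3 (1.29) or the 3 libraries that stood apart (1.47).

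In con vs 3A, con vs 3S, con vs 6A, 3A vs 3S, 3A vs 6A, con vs all treated fish and 3‰ vs 6‰, limma called 0 of the 4 loci on the unadjusted p, where 5.74%, 6.56%, 10.4%, 5.04%, 5.22%, 5.46% and 3.64% of tested genes were called. In con vs 3S, Ig lambda-1 light chain was 0.99 higher without overlap (SE 0.563), as the higher group did not overlap con for 9.59% of genes. It was called there with con and 3S fitted alone, and without 3A replicate 1 it was called in con vs 3S (0.99) and in 3A vs 3S (1.35). In 3‰ vs 6‰, Ig light chain L2 was called without 3S replicate 1 (0.69), without 6S replicate 3 (0.71) and without the 3 libraries that stood apart (0.80).

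The intervals show what this number of fish could resolve. The 95% interval for IgM heavy chain was -2.01 to 2.23 log2 units in con vs 3A, -2.32 to 1.92 in con vs 3S, -2.47 to 1.77 in con vs 6A and -1.21 to 3.03 in con vs 6S. A change of 1 log2 unit in either direction lay within each of them.

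**Figure D2:**
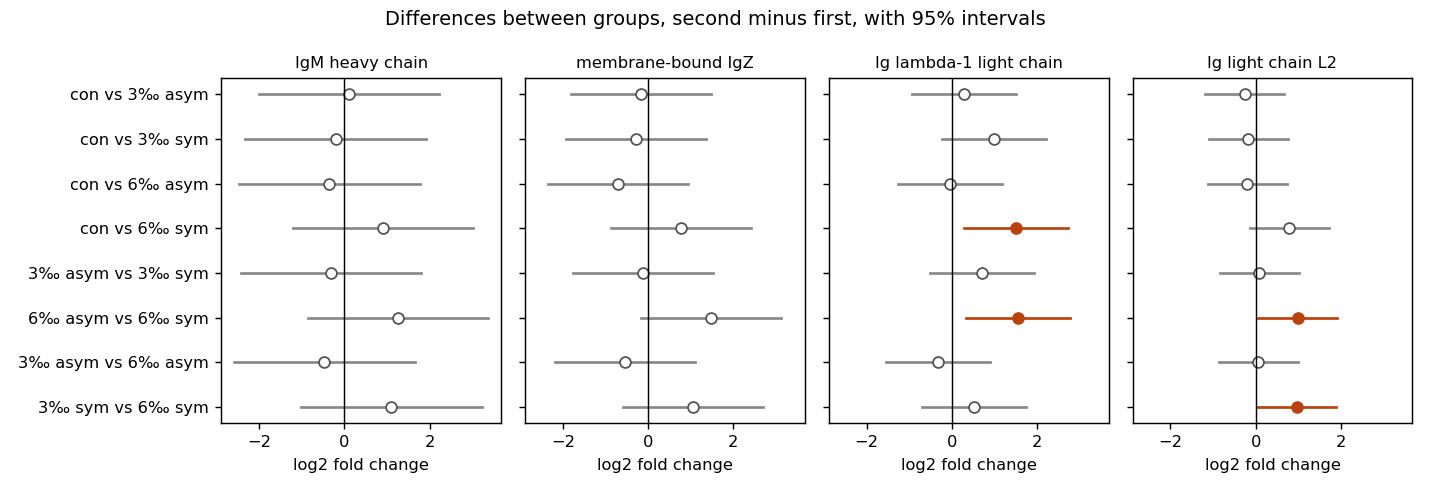
Log2 fold change of each locus in 8 of the 12 comparisons, second minus first, with the 95% interval of limma on log2(FPKM + 1), and filled points for calls at the unadjusted p. The called differences are Ig lambda-1 light chain in con vs 6S (1.51) and 6A vs 6S (1.55), and Ig light chain L2 in 6A vs 6S (0.99) and 3S vs 6S (0.96), and the intervals of both heavy chains include 0 throughout.

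The heavy chains rose and fell together from fish to fish. Over 15 fish, IgM heavy chain and membrane-bound IgZ correlated at r = 0.958 on log2(FPKM + 1) (permutation p = 1e-05, the smallest that the resamples can give) and at rho = 0.968 (permutation p = 1e-05). They are listed on different scaffolds, but that of IgM heavy chain holds no other listed locus. The distance between these loci in the genome is therefore not known. Each was the closest of 24646 other tested genes to the other. The correlation was 0.932 without 6S replicates 1 and 2 (the fish farthest from the median of IgM heavy chain), 0.985 without the 3 libraries that stood apart, and 0.969 on deviations from the group means (permutation p = 0.00019). The median r of the other tested genes to IgM heavy chain was 0.0703.

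**Figure D3:**
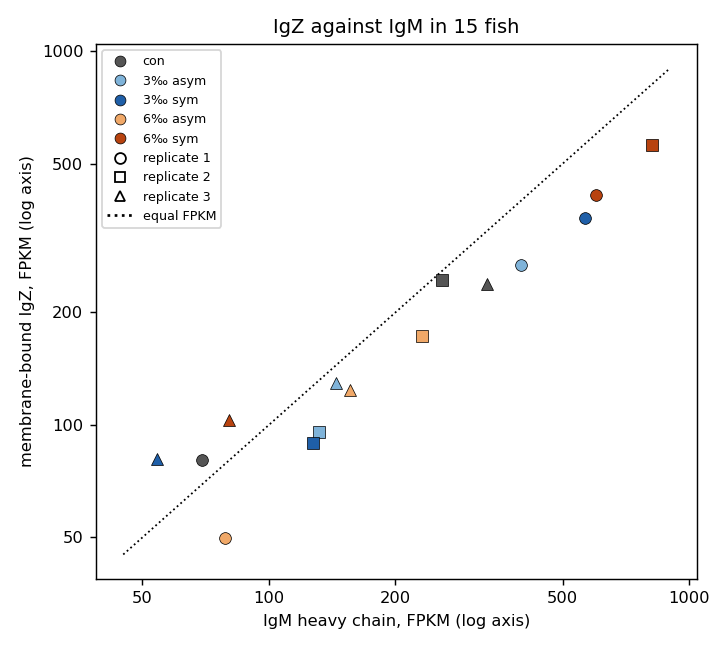
FPKM of membrane-bound IgZ against that of IgM heavy chain in 15 fish (both axes log), coloured by group, with a dotted line at equal FPKM. The fish of all groups lie along 1 band (r = 0.958), and the 3 above the dotted line are con replicate 1, 3S replicate 3 and 6S replicate 3.

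Each light chain went with each heavy chain more loosely. Membrane-bound IgZ correlated with Ig light chain L2 at r = 0.758 (permutation p = 0.0006, adjusted over the 6 pairs of loci 0.0018; rho = 0.621, permutation p = 0.0155, adjusted 0.0199) and with Ig lambda-1 light chain at r = 0.704 (permutation p = 0.00402, adjusted 0.00804; rho = 0.686, permutation p = 0.00587, adjusted 0.0117). Of all tested genes, 0.548% were at least as close to membrane-bound IgZ as Ig light chain L2 was, and 1.25% as Ig lambda-1 light chain was. Without 6S replicates 1 and 2, r was 0.544 (permutation p = 0.0497) with Ig light chain L2 and 0.581 (permutation p = 0.0385) with Ig lambda-1 light chain. On deviations from the group means, r was 0.703 (permutation p = 0.0327) and 0.721 (permutation p = 0.00178).

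IgM heavy chain correlated with Ig lambda-1 light chain at r = 0.628 (permutation p = 0.0133, adjusted 0.0133; rho = 0.614, permutation p = 0.0166, adjusted 0.0199) and with Ig light chain L2 at r = 0.634 (permutation p = 0.00829, adjusted 0.0124; rho = 0.486, permutation p = 0.0676). Both lay below 0.639, the 95% point of r to IgM heavy chain over the other tested genes. Of tested genes, 5.51% were at least as close to IgM heavy chain as Ig lambda-1 light chain and 5.21% as Ig light chain L2. Thus neither r stands out among the r of other genes to IgM heavy chain. Seen from the light chains, fewer genes were as close as IgM heavy chain. The share was 2.19% for Ig lambda-1 light chain and 0.45% for Ig light chain L2. Without 6S replicates 1 and 2, r was 0.472 (permutation p = 0.103) with Ig lambda-1 light chain and 0.325 (permutation p = 0.285) with Ig light chain L2, and neither relation passed 0.05. On deviations from the group means, r was 0.661 (permutation p = 0.00166) with Ig lambda-1 light chain and 0.585 (permutation p = 0.179) with Ig light chain L2. The closest pair of libraries, 3S replicate 1 and 6S replicate 1, are both high in all 4 loci, and without them IgM heavy chain gave r = 0.493 with Ig lambda-1 light chain (permutation p = 0.0873) and r = 0.538 with Ig light chain L2 (permutation p = 0.0575).

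The light chain loci, neighbours on their scaffold, correlated with each other at r = 0.609 (permutation p = 0.0126, adjusted 0.0133) and rho = 0.689 (permutation p = 0.00585, adjusted 0.0117). The correlation was 0.554 without 3S replicate 1 and 6A replicate 1 (permutation p = 0.0439), and 0.514 without 3S replicate 1 and 6S replicate 1 (permutation p = 0.0672). Of all tested genes, 2.67% were at least as close to Ig lambda-1 light chain as Ig light chain L2 was. Without the 3 libraries that stood apart, r was 0.644 between the light chains and between 0.818 and 0.878 for the pairs of a heavy and a light chain. In the libraries that stood apart, IgM heavy chain was at 54.1 to 80.5 FPKM, among the 4 lowest of all fish, while Ig light chain L2 was at 29.3 to 33.5 FPKM, at or above its median of 29.3 FPKM over all fish.

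**Figure D4:**
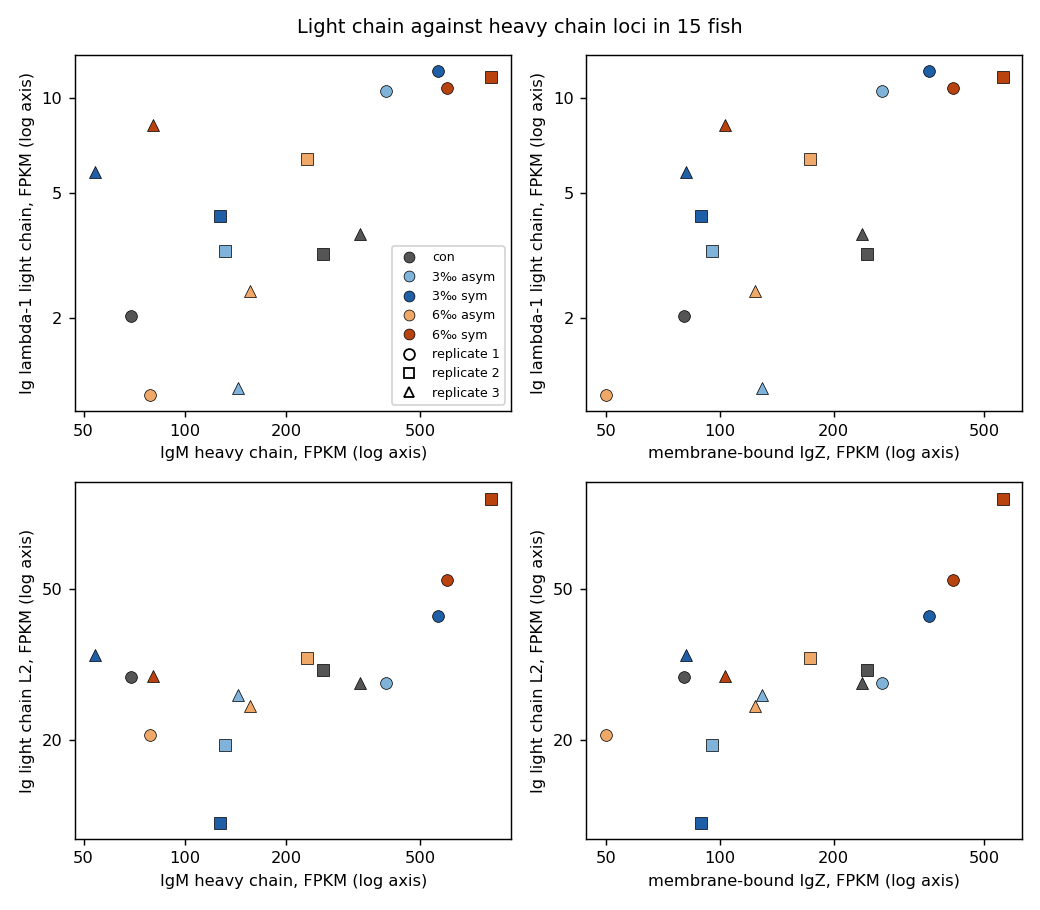
FPKM of each light chain locus against that of each heavy chain locus in 15 fish (both axes log), coloured by group with a symbol for each replicate number. Ig light chain L2 reaches 42.6 FPKM or more in 3 fish, all with IgM heavy chain at 564 FPKM or more, and 3S replicate 3 and 6S replicate 3 lie at the left of each panel with low heavy chain levels beside Ig lambda-1 light chain at 5.83 and 8.20 FPKM.

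The ratio of membrane-bound IgZ to IgM heavy chain was taken within each library, so that the scaling of the library drops out. It was 1.16, 0.947 and 0.720 in con, 0.675, 0.727 and 0.896 in 3A, and 0.634, 0.701 and 1.5 in 3S. It was 0.635, 0.747 and 0.794 in 6A, and 0.689, 0.687 and 1.28 in 6S. The ratio was above 1 in 3 fish, con replicate 1, 3S replicate 3 and 6S replicate 3, and every treated group overlapped con.

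For the tests, 1 FPKM was added to each locus before the log2 ratio was taken. On this scale the ratio was 0.21 lower in treated than in con fish (exact permutation p = 0.435, adjusted over 3 tests 0.675). It was 0.06 lower at 6‰ than at 3‰ (exact permutation p = 0.753, adjusted 0.753) and 0.21 higher in symptomatic than in asymptomatic fish (exact permutation p = 0.45, adjusted 0.675). All tests were two-sided. Without the 3 libraries that stood apart, the last difference was -0.13. Between single groups of 3 fish an exact test cannot go below p = 0.1, and no pair of groups came below p = 0.3.

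The fish with a ratio above 1 are the 3 libraries that stood apart in all other genes. The ratio followed the first principal component of the other 24643 tested genes, which held 25.2% of their variance, at r = 0.802 (permutation p = 0.00053, adjusted over 15 relations of the loci to library measures 0.00795) and rho = 0.725 (permutation p = 0.0028, adjusted 0.042). Without the 2 fish farthest from the median score, r was 0.666 (permutation p = 0.00772), and on deviations from the group means it was 0.856 (permutation p = 0.00938). Without the 3 libraries that stood apart, r was 0.519 over the other 12 fish (permutation p = 0.0863), so that the relation no longer passed 0.05. IgM heavy chain went the other way along this component (r = -0.607, permutation p = 0.0168, adjusted 0.084; rho adjusted 0.138), and its r was -0.462 without the 2 farthest fish (permutation p = 0.112) and -0.27 without the 3 libraries (permutation p = 0.395). Membrane-bound IgZ lay in the same direction as IgM heavy chain, at r = -0.43 (permutation p = 0.11, adjusted 0.251). On deviations from the group means, r was -0.689 for membrane-bound IgZ (permutation p = 0.044) and -0.803 for IgM heavy chain (permutation p = 0.0169). Without the 3 libraries, r for membrane-bound IgZ was -0.186 (permutation p = 0.562). The ratio also went with the FPKM sum of the library at r = 0.697 (permutation p = 0.00373, adjusted 0.028), though rho was 0.457 (permutation p = 0.0906, adjusted 0.194). Without the 3 libraries, its r with that sum was 0.346 (permutation p = 0.275). With the number of genes above 0, the ratio had r = -0.55 (permutation p = 0.0323, adjusted 0.121). That r was -0.416 without the 2 fish farthest from the median number (permutation p = 0.155) and -0.609 without the 3 libraries (permutation p = 0.0343). The part of these library differences in the ratio was not tested.

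**Figure D5:**
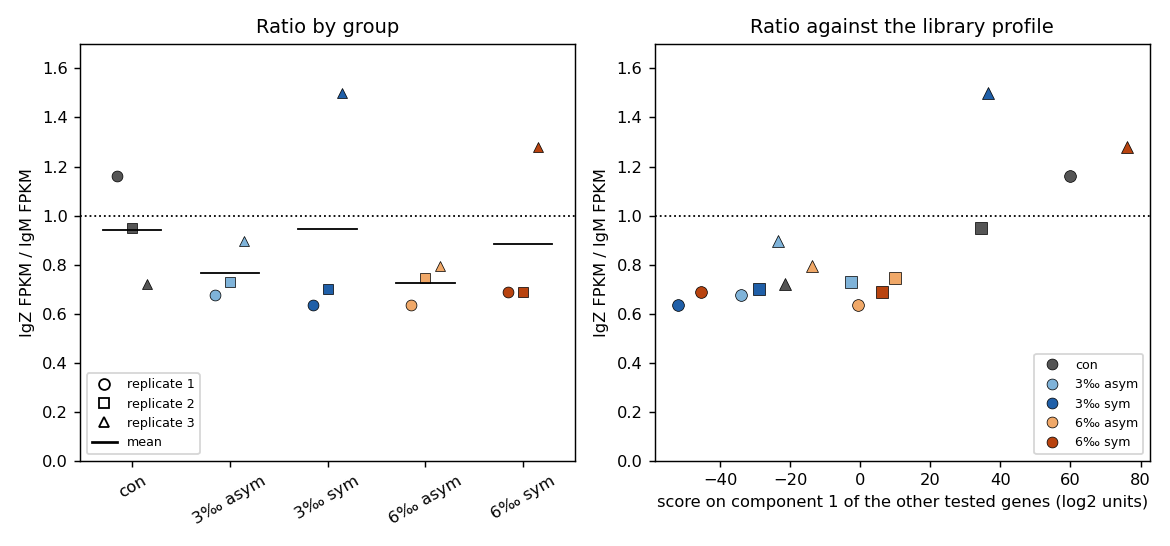
Ratio of membrane-bound IgZ to IgM heavy chain FPKM in each fish, by group with a bar at the group mean (left) and against the score on the first principal component of the other tested genes (right), with a dotted line at a ratio of 1. The 3 fish above 1 (1.16, 1.5 and 1.28) have 3 of the 4 scores above 30 on that component, and r was 0.802 over 15 fish.

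The ratio of Ig lambda-1 light chain to Ig light chain L2 was below 1 in every fish. It was 0.0692, 0.105 and 0.131 in con, 0.373, 0.168 and 0.0456 in 3A, and 0.287, 0.350 and 0.174 in 3S. It was 0.0552, 0.195 and 0.0992 in 6A, and 0.203, 0.135 and 0.279 in 6S. All 6 symptomatic fish lay above all 3 con fish, and asymptomatic fish lay on both sides. The separation was narrow, with 6S replicate 2 at 0.135 and con replicate 3 at 0.131. With 1 FPKM added to each locus, as in the tests, con and 6S overlapped (exact permutation p = 0.2). How often other pairs of genes separate these fish was not tested.

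The tests used this ratio on the log2 scale after 1 FPKM was added to each locus. This changes the ratio most where Ig lambda-1 light chain is low. So computed, it was 0.65 higher in treated than in con fish (exact permutation p = 0.167, adjusted over 3 tests 0.251). It was 0.42 lower at 6‰ than at 3‰ (exact permutation p = 0.331, adjusted 0.331) and 0.59 higher in symptomatic than in asymptomatic fish (exact permutation p = 0.16, adjusted 0.251). Between con and 3S it differed by 1.17 (exact permutation p = 0.1, the smallest that 3 against 3 fish allow). None of these passed 0.05.

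The summed FPKM of these heavy chain loci exceeded that of these light chain loci in every fish. Other immunoglobulin loci were not summed, so the sums do not compare all heavy with all light chain RNA in the gill. The ratio of the heavy to the light chain sum was 4.77, 14.9 and 17.8 in con, 17.1, 10.02 and 9.96 in 3A, and 16.8, 13.3 and 3.44 in 3S. It was 5.93, 10.3 and 10.4 in 6A, and 15.9, 13.9 and 4.87 in 6S. The lowest values were in the 3 libraries that stood apart, followed by 6A replicate 1, and the groups overlapped.

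For each locus the 5 tested genes with the most similar pattern over 15 fish were taken by Pearson r on log2(FPKM + 1), as a description of genes picked for that r. Apart from each other, the heavy chains had CI01000065_00906591_00915144.path1 (r = 0.951 with IgM heavy chain) and CI01000303_00237281_00241353.path1 (r = 0.935 with membrane-bound IgZ) as the most similar. For Ig lambda-1 light chain it was CI01000036_01424028_01426480.path1 (r = 0.924), and for Ig light chain L2 it was CI01000047_05219313_05222967.path1 (r = 0.88). A high r does not mean a change of like size. CI01000065_00906591_00915144.path1 stayed at 4.18 to 10.4 FPKM, while IgM heavy chain spanned a 15.1-fold range. CI01000303_00237281_00241353.path1 stayed at 37.2 to 46.3 FPKM, while membrane-bound IgZ spanned an 11.2-fold range. The sole gene in more than 1 of the 4 lists, other than the heavy chains themselves, was Ctenopharyngodon_idella_newGene_18538, at r = 0.915 with membrane-bound IgZ and 0.83 with Ig light chain L2 and a median of 0.19 FPKM. No source used here names these genes.

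IgM heavy chain has no listed neighbour, and the one neighbour of Ig light chain L2 is Ig lambda-1 light chain. The nearest listed loci on either side of membrane-bound IgZ had r = 0.000257 and r = -0.0946 with it and stayed at or below 2.88 FPKM. The locus after Ig lambda-1 light chain, CI01000334_00020667_00020942.path1, is separated from it by 1361 bases and had r = -0.664 with it, at 0 to 2.31 FPKM. The other 10 tested loci on the light chain scaffold had r from -0.664 to 0.131 with Ig lambda-1 light chain and from -0.327 to 0.193 with Ig light chain L2. In 6A vs 6S, where both light chains were called higher, 0 of these 10 were called higher and 1 lower on the unadjusted p of limma. The share of tested genes called there, in either direction, was 5.51%. In con vs 6S, 1 of the 10 was called higher and 1 lower, against 5.97% of tested genes. In 3S vs 6S, 0 were called higher and 0 lower, against 2.43%. So few loci cannot show whether the light chains differ from the rest of their scaffold.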

How the data were processed

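The authors deposited a table for each fish with the FPKM of 40116 genes, of which 32723 are named by a genome locus and 7393 as new genes, scaled by transcript length and library total. The aligner, counter and genome build were not given in the sources used here. Sources differ on how the values arose: the labels describe NEBNext reagents, the methods a TruSeq kit and assembly without a genome by Trinity, and the tables name genome loci. A single line of text (1 in each) was removed from the tables, and 0 columns were unused. Among low values no unit of a single read common to the libraries was found (at most 1.85% of ratios of low genes fell in 1 bin), so the depth in reads is unknown and no count test was run.

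Values were tested on log2(FPKM + 1), which understates changes of low genes, with limma 3.58.1 in R 4.3.3, in 1 model over 5 groups (10 residual and 2.64 prior degrees of freedom), for the 24647 genes with a mean of at least 0.5 FPKM, and p-values were adjusted by Benjamini-Hochberg within each comparison. The script was tested on simulated data. Ratios had exact permutation tests on log2 values with 1 FPKM added to each locus. Correlations had permutation tests with 100000 resamples (numpy 2.4.6). The fish are separate individuals, and each test takes the fish as its unit. The p-values therefore take no account of any spread between tanks. The study does not say how many tanks held each salinity during the 30 days. Differences between salinities therefore cannot be told apart from differences between tanks.

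The loci, lists and tests were chosen with earlier results of these data known. The genes named were the 4 loci, the 5 genes most similar to each, and the nearest listed loci. The gene table of the reference held 0 of the identifiers, so markers of B cells and of gill were not analysed here and no sequence is shown. Alternatives were another pseudocount (0.1), filter (none, or at least 1 FPKM), scaling, replicate block, variance prior, groups in the fit and threshold, and each fish left out. The share of tested genes called was taken in the main fit, not in these other fits. The exact tests of called loci, and the fits and relations without the 3 libraries that stood apart, and without the closest pair of libraries, were chosen after seeing the data.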

Additional observations from a re-analysis of the deposited data

Results flagged for a closer look

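Ig light chain L2 lay on opposite sides of the con mean in 2 treated groups, both of which overlapped the con fish. All 3A fish (28.3, 19.4 and 26.3 FPKM) were below the con mean of 29.4 FPKM and all 6S fish (53.1, 87.0 and 29.4 FPKM) were above it, with 6S replicate 3 only just above. The con fish were at 29.3, 30.6 and 28.2 FPKM. In limma, neither con vs 3A (-0.26, adjusted p = 0.8) nor con vs 6S (0.79, adjusted p = 0.61) was called. The mean of 6S lay 1.05 log2 units above that of 3A. The difference was not tested, and the con fish are shared by both sides.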

How the results depend on the processing

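The pseudocount of 0.1, both other filters and the variance prior with a trend changed no call or direction. For loci called under other fits, here and below, the share of all tested genes called was not taken. On the adjusted p, 0 loci were called in con vs 6S, 6A vs 6S, 3S vs 6S and symptomatic vs asymptomatic fish. With only the groups compared in the fit, 0 were called in 3S vs 6S and 1 in con vs 3S. The same replicate numbers did not pair the fish (median correlation of deviations -0.00953 over 30 same-number pairs), and with the replicate block 0 loci were called in 3S vs 6S and 1 in 6A vs 6S, where Ig light chain L2 kept its 0.99. Without the 3 libraries that stood apart, 4 were called in 6A vs 6S, 3 in symptomatic vs asymptomatic fish, and 1 each in 3‰ vs 6‰ and the interaction, and these changed sign without any call: IgM heavy chain in con vs 3A (-0.57), 3A vs 3S (0.45) and con vs treated (-0.12), membrane-bound IgZ in 3A vs 3S (0.26), Ig light chain L2 in 3A vs 3S (-0.0877) and the IgZ to IgM ratio with symptoms (-0.13). Ig light chain L2 in con vs treated fish was -0.0332 under median-ratio scaling and -0.00328 under quantile normalization, against 0.04. Without 3S replicate 1 and 6S replicate 1, r fell to 0.493 and 0.538 for IgM heavy chain with Ig lambda-1 light chain and Ig light chain L2, and to 0.514 between the light chains.

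Leaving out 1 fish at a time, the number of loci called ranged from 0 to 4 in 6A vs 6S, 0 to 3 in 3S vs 6S, 0 to 2 in con vs 6S and the interaction, 1 to 2 with symptoms, and 0 to 1 in 3A vs 3S, con vs 3S and 3‰ vs 6‰. The correlation of IgM heavy chain with Ig light chain L2 ranged from 0.489 to 0.728, that of IgM heavy chain with Ig lambda-1 light chain from 0.559 to 0.733, that between the light chains from 0.534 to 0.703, and the IgZ to IgM ratio in 3‰ vs 6‰ from -0.20 to 0.11. Uncalled log2 differences that changed sign were, for IgM heavy chain, con vs 3A (-0.57 to 0.55), con vs 3S (-1.12 to 0.56), con vs 6A (-1.04 to 0.0781), con vs treated (-0.57 to 0.55), 3A vs 3S (-1.23 to 0.45), 3A vs 6A (-0.82 to 0.0407) and 3‰ vs 6‰ (-0.0616 to 0.84). For membrane-bound IgZ they were con vs 3A (-0.69 to 0.15), con vs 3S (-0.97 to 0.10), con vs treated (-0.62 to 0.18) and 3A vs 3S (-0.80 to 0.31). For Ig lambda-1 light chain they were con vs 3A (-0.35 to 0.84), con vs 6A (-0.53 to 0.37), 3A vs 6A (-0.89 to 0.31) and 3‰ vs 6‰ (-0.19 to 0.41). For Ig light chain L2 they were con vs 3S (-0.52 to 0.35), con vs treated (-0.0531 to 0.17), 3A vs 3S (-0.26 to 0.61) and 3A vs 6A (-0.11 to 0.21). The causes were not tested.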
